A study of Mus musculus with 100 samples.

Results

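The loci examined here are 10 genes of the liver X receptor (LXR) and lipogenic program: Abca1, Abcg1, Scd1, Scd2, Srebf1, Nr1h3, Nr1h2, Mylip, Lpcat3 and Pltp. Every region that the deposited chromatin immunoprecipitation (ChIP-seq) tables list with one of these genes as its nearest gene was taken, which gave 795 of 610301 regions over 15 tables and 10 of 18524 genes. Assignment by the nearest transcription start site (TSS) does not show that a region acts on that gene. When regions whose centres lay within 300 bp were merged across tables, the 795 regions fell on 139 sites, 44 of them at Abca1, 27 at Abcg1, 19 at Mylip, 12 each at Pltp and Scd2, 7 each at Scd1 and Srebf1, 6 at Lpcat3, 3 at Nr1h2 and 2 at Nr1h3. Of these sites, 18 had a region in all 8 factor tables and 44 in only 1.

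The study profiled bone marrow-derived macrophages (BMDMs) of C57BL/6 mice and bone marrow cells on the way to osteoclasts, in 50 groups of 2 libraries. Cells received vehicle (Veh) or the TLR4 ligand Kdo2 lipid A (KLA), which mimics bacterial endotoxin, and counts were deposited for 70 libraries, while the 30 input samples were not analysed here. The histone acetylation H3K27ac, which marks promoters and enhancers in use, was compared between WT cells, which are NCoR flox/flox in that table, and NKO cells, which are NCoR flox/flox with LysMCre. It was also compared between PGC1b flox/flox cells without and with LysMCre, and in wild type cells given DMSO with Veh, DMSO with KLA, or the HDAC3 inhibitor RGFP966 with KLA. The Cre recombinase is driven from the lysozyme locus, so both deletions are confined to myeloid cells, and the control cells of both tables carry the floxed alleles. The factors NCoR, HDAC3, p65, Fosl2, PU.1, PGC1b, ERK1 and p300 were profiled in wild type cells with Veh and KLA. NCoR was also profiled with KLA and an ERK inhibitor (ERKi), and PGC1b with DMSO and Veh, DMSO and KLA, or ERKi and KLA. The labels give 6 h of KLA, except for NCoR with ERKi and the PGC1b libraries with DMSO or ERKi, where they give no time, and the p300 Veh libraries are described as 0 h of KLA. ERK1 and p300 were profiled in bone marrow cells, labelled wild type, at day 0 and day 4 of osteoclast culture. The library names of ERK1 at day 0 and of replicate 1 at day 4 carry NCoRWT, while that of replicate 2 at day 4 does not. None of these tables holds an NCoR profile of NKO cells, and H3K27ac does not measure the deletion itself, so the genotype labels were not checked.

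LXRα (encoded by Nr1h3) and LXRβ (Nr1h2) are nuclear receptors that bind DNA as heterodimers with the retinoid X receptor and are activated by oxidised sterols. Without ligand they recruit the corepressor NCoR together with the deacetylase HDAC3, and ligand exchanges these for acetyltransferases such as p300. In macrophages their targets export cholesterol (the transporters Abca1 and Abcg1), make and desaturate fatty acids (the transcription factor gene Srebf1 and the stearoyl-CoA desaturases Scd1 and Scd2), degrade lipoprotein receptors (the ubiquitin ligase Mylip), remodel phospholipids (Lpcat3) and transfer them between lipoproteins (Pltp).

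Values are tags per 10 M sequenced tags, from the library totals in the file headers (4.30 to 21.5 M tags; 13.6 to 19.6 M in the WT and NKO table). Differences are on the log2 scale with a standard error (SE), tested with edgeR's quasi-likelihood test, and a region was called when its Benjamini-Hochberg adjusted p over all regions of the table was under 0.05 and the difference was over 2-fold. Of all tags, 2.79 to 52.8% lay in listed regions, and TMM (scaling by the trimmed mean of M-values) in place of library totals moved the median difference of all regions by over 0.1 in 22 of 25 comparisons, so the median is given beside each count and lost calls are named. Macrophage marker genes were marked in every H3K27ac table (7 of 7 genes), while T cell, B cell and fibroblast markers had no region. In such bulk profiles a smaller share of cells with the mark and less mark per cell cannot be told apart. The labels call the libraries biological replicates without stating separate animals, so the tests measure the spread between these libraries. Regions are named by their distance in kb from the TSS, with coordinates in mm10.

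Windows of 200 bases around the centres of H3K27ac regions called in NKO are printed where they held a repeat or run described below. The windows of the other called regions, Abcg1 +9.3 kb in intron 2 and Scd2 +0.3 kb in the first exon, held none and are not printed. The printed windows are the + strand of GRCm38.p6 (the reference genome of build mm10), and capitals mark letters described after them.

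Abca1 +1.1 kb, chr4:53158689-53158888, intron 1: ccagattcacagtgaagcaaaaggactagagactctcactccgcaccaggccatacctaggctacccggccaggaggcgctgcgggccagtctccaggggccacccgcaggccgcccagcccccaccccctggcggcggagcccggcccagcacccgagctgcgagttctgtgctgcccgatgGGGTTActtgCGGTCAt
Abcg1 -17.9 kb, chr17:31039693-31039892, intergenic: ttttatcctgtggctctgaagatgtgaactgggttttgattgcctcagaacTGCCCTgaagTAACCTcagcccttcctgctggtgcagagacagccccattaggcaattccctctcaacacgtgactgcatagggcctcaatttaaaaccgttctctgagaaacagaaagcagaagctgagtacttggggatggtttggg
Scd1 +19.1 kb, chr19:44388539-44388738, intergenic: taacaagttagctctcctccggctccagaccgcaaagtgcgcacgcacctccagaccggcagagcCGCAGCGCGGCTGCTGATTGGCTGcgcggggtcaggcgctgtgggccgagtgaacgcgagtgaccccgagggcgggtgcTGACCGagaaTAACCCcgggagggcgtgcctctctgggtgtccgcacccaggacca
Scd2 -9.4 kb, chr19:44284159-44284358, intergenic: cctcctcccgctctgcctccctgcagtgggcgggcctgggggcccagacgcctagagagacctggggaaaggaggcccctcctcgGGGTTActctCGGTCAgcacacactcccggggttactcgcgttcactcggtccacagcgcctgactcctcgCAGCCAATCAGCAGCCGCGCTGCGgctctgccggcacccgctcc
Scd2 -26.6 kb, chr19:44266990-44267189, intergenic: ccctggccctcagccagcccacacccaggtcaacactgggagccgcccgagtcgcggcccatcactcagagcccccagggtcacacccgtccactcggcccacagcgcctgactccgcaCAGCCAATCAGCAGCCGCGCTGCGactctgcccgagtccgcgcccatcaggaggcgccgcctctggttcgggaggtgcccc

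LXR heterodimers prefer direct repeats of AGGTCA separated by 4 bases. With up to 2 mismatches in the 12 bases of the half-sites, on either strand, such a repeat stood in 1.88% of 24620 windows of the WT and NKO table and in 1 of the 25 windows of these loci, Abcg1 -17.9 kb (capitals, reverse strand). The paired letters GGGTTA and CGGTCA with 4 bases between them (capitals in the Abca1, Scd1 and Scd2 -9.4 kb windows, reverse strand in Scd1) were written down only after these windows had been read. They stood in 6 of the 24620 windows, 5 of them at Abca1 +1.1, -0.1 and +43.9 kb, Scd1 +19.1 kb and Scd2 -9.4 kb, and this count is a description, since the letters were taken from 3 of these windows. The direct repeat with up to 3 mismatches, an added setting, stood in 14.8% of all windows and in 8 of 25.

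A run of 24 identical bases (the other capitals in the Scd windows) was shared by Scd1 +19.1 kb on the reverse strand and by Scd2 -9.4 and -26.6 kb, and an exact search of the genome found it at these 3 places only. Scd1 and Scd2 are neighbouring paralogs of mouse chromosome 19, and how reads that match several copies were handled is not given in the sources used here. Tags at the 3 regions may therefore be less certain than elsewhere, which was not tested. The PU.1 motif GAGGAAG (20.3% of all windows) and the AP-1 motif TGANTCA (3930 of 24620) stood in 3 of 25 windows each, neither in a window of a region called in NKO. The sterol element TCACNCCAC (0.934%) and the NF-κB motif GGGANTTTC (1.02%) stood in none of the 25, which says only that these letters are not in these windows.

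To ask whether loss of NCoR changed the mark at these loci, NKO was compared with WT. With Veh, 5 of 24 tested regions were called, all higher in NKO, at Scd2 (3 regions), Scd1 and Abca1, where 1.00% of all 18504 regions were called (0.973% higher and 0.0270% lower). With KLA, 3 of 24 were called, again all higher, at Abca1 and Abcg1 (2 regions), against 0.789% of all regions (0.400% higher and 0.389% lower). The median difference over the 24 regions was 0.82 with Veh against 0.30 over all regions, and 0.27 with KLA against -0.04. The remaining locus region, Pltp +5.3 kb, held too few tags to be tested. With TMM the Veh median of all regions was 0.00, and all-region calls went from 180 higher and 5 lower to 25 and 15.

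At the cholesterol exporter Abca1 the region in intron 1 (chr4:53158648-53158929) gained the mark in NKO under both treatments. With Veh it held 20.2 and 32.6 tags per 10 M in WT and 73.0 and 64.4 in NKO, a log2 gain of 1.36 (SE 0.29, edgeR adjusted p = 0.0071). With KLA it held 20.1 and 13.8 in WT and 78.0 and 57.6 in NKO, a difference of 2.00 (SE 0.31, edgeR adjusted p = 0.00027). All 4 NKO libraries stood above all 4 WT libraries. The Veh call was lost with TMM (1.06) and without WT Veh replicate 1 (1.07), WT Veh replicate 2 (1.76) or NKO Veh replicate 1 (1.27), whereas the KLA call held under every setting tried. No call was made at the Abca1 promoter 0.1 kb upstream, with 17.7 and 11.7 in WT and 15.5 and 19.2 in NKO with Veh (difference 0.25), nor at the strong region at +39.3 kb (0.04 with Veh and -0.11 with KLA).

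The second exporter, Abcg1, was called only with KLA. In intron 2 (+9.3 kb, chr17:31066791-31067226) WT cells with KLA held 7.55 and 8.96 tags per 10 M and NKO cells 34.5 and 25, a log2 gain of 1.85 (SE 0.45, edgeR adjusted p = 0.025). Upstream at -17.9 kb (chr17:31039659-31039925), which was named after its values were seen, they held 11.3 and 13.1 against 30.8 and 41.0 (difference 1.54, SE 0.39, edgeR adjusted p = 0.032). NKO libraries were above WT libraries in both treatments at these 2 regions, and with Veh the differences of 1.26 and 1.06 missed the threshold (edgeR adjusted p = 0.12 for each). The highest Veh difference at Abcg1 was that of -19.2 kb, with 5.04 and 5.60 in WT and 18.4 and 23.2 in NKO (1.95, edgeR adjusted p = 0.057), which was not called either and was 0.22 with KLA. Leaving out any of the 4 KLA libraries ended both calls, with values of 1.59 to 2.06 at +9.3 kb and 1.33 to 1.74 at -17.9 kb. The Abcg1 promoter (-0.1 kb) held 21.4 and 13.8 in WT and 44.2 and 29.6 in NKO with Veh, which was not called (1.07, edgeR adjusted p = 0.20).

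The desaturase loci had the highest ratios, all with Veh. In the first exon of Scd2, in its 5′ UTR (+0.3 kb, chr19:44293786-44294157), WT cells held 9.46 and 6.11 tags per 10 M and NKO cells 45.0 and 59.2, a log2 gain of 2.76 (SE 0.42, edgeR adjusted p = 9.4e-05). At Scd1 +19.1 kb (chr19:44388418-44388859), which lies 5.6 kb beyond the end of the gene, they held 15.8 and 11.2 against 78.2 and 56.9, a difference of 2.33 (SE 0.36, edgeR adjusted p = 0.00012). Both calls held with TMM (2.46 and 2.02) and were lost without WT Veh replicate 2 (2.46 and 2.09). With KLA the Scd2 difference was 1.09 (edgeR adjusted p = 0.21) and the Scd1 difference 1.52 (edgeR adjusted p = 0.060; 1.56 and called with TMM), and NKO libraries were still above WT libraries at both.

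At Scd2, 2 further regions, named after their values were seen, carried the printed 24-base run. At -9.4 kb (chr19:44284067-44284450) WT cells with Veh held 3.15 and 10.7 tags per 10 M and NKO cells 33.2 and 31.3 (2.16, SE 0.48, edgeR adjusted p = 0.0097), while under KLA they differed by 1.30 (edgeR adjusted p = 0.17). At -26.6 kb (chr19:44266950-44267228) the Veh values were 10.1 and 9.68 against 31.7 and 29.6 (1.63, SE 0.46, edgeR adjusted p = 0.049), with 1.00 under KLA. TMM ended both Veh calls (1.87 and 1.33). The -9.4 kb call was also lost without WT Veh replicate 1 (1.58), WT Veh replicate 2 (3.32) or NKO Veh replicate 1 (2.12), and the -26.6 kb call without any one of the 4 Veh libraries (1.58 to 1.68).

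**Figure D1:**
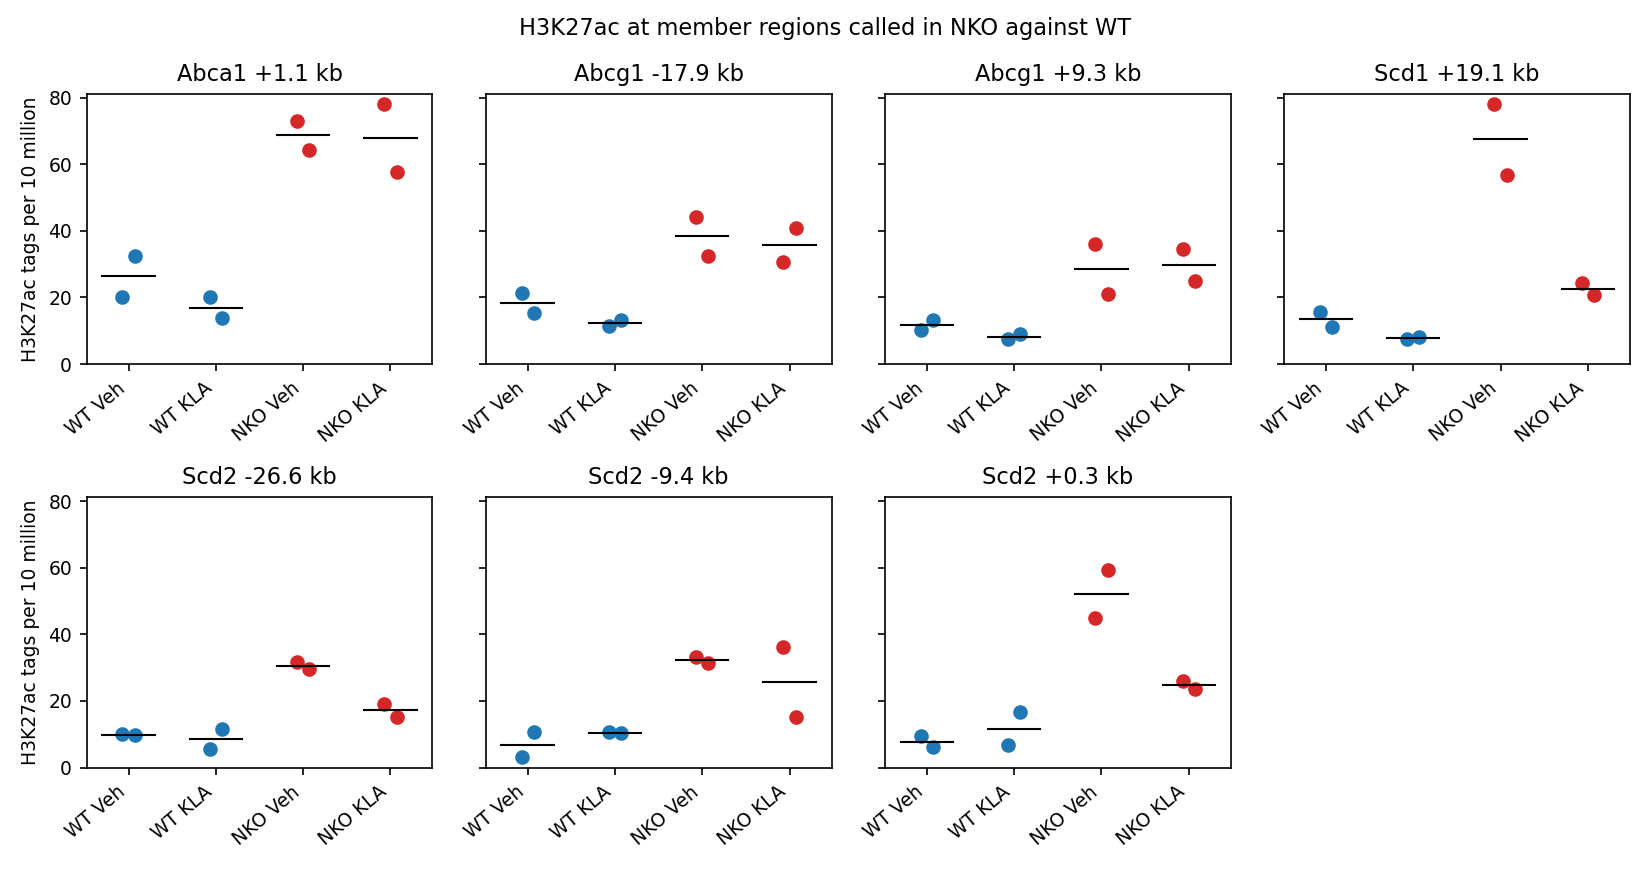
H3K27ac in tags per 10 M (vertical axis) at the 7 regions called in NKO against WT, with 1 point per library (blue WT, red NKO) and bars at the means of 2 libraries. At Abca1 +1.1 kb the NKO libraries sit between 57.6 and 78.0 and the WT libraries between 13.8 and 32.6, while at Scd1 +19.1 kb and Scd2 +0.3 kb the NKO level is highest with Veh.

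The other 6 loci had no called region. At the Srebf1 promoter (+0.0 kb, chr11:60220389-60220802), the gene of the main lipogenic transcription factor, WT cells with Veh held 51.7 and 42.8 tags per 10 M and NKO cells 73.0 and 77.8 (0.68, edgeR adjusted p = 0.12), and with KLA the difference was 0.03. A region at another Srebf1 start (chr11:60210388-60210631) had few tags and was not called. The difference there was 1.02 with KLA and 1.60 with Veh (edgeR adjusted p = 0.48). With Veh, WT cells held 1.26 and 4.07 and NKO cells 8.85 and 8.13. At Nr1h3 -1.8 kb, near the promoter of the LXRα gene, they held 80.7 and 70.8 against 128 and 98.7 with Veh (0.58, edgeR adjusted p = 0.16) and differed by 0.28 with KLA. The LXRβ gene Nr1h2 differed by 0.12 and -0.20 at its promoter. The 2 Mylip regions differed in opposite directions, neither past the threshold. Mylip +2.0 kb differed by 0.63 with Veh and by 1.73 with KLA (2.52 and 8.27 in WT, 17.5 and 18.1 in NKO, edgeR adjusted p = 0.088), and the weaker promoter region at -0.1 kb by -0.95 and by -1.62 (3.77 and 7.58 in WT, 2.12 and 1.39 in NKO, edgeR adjusted p = 0.58). Lpcat3 -0.2 kb differed by 0.05 and 0.18. Under KLA, Pltp was lower in NKO without passing the threshold, with 91.2 and 121 in WT and 54.7 and 79.2 in NKO at -9.7 kb (-0.67, edgeR adjusted p = 0.097), and the Nr1h2 and Mylip promoter regions were also negative.

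**Figure D2:**
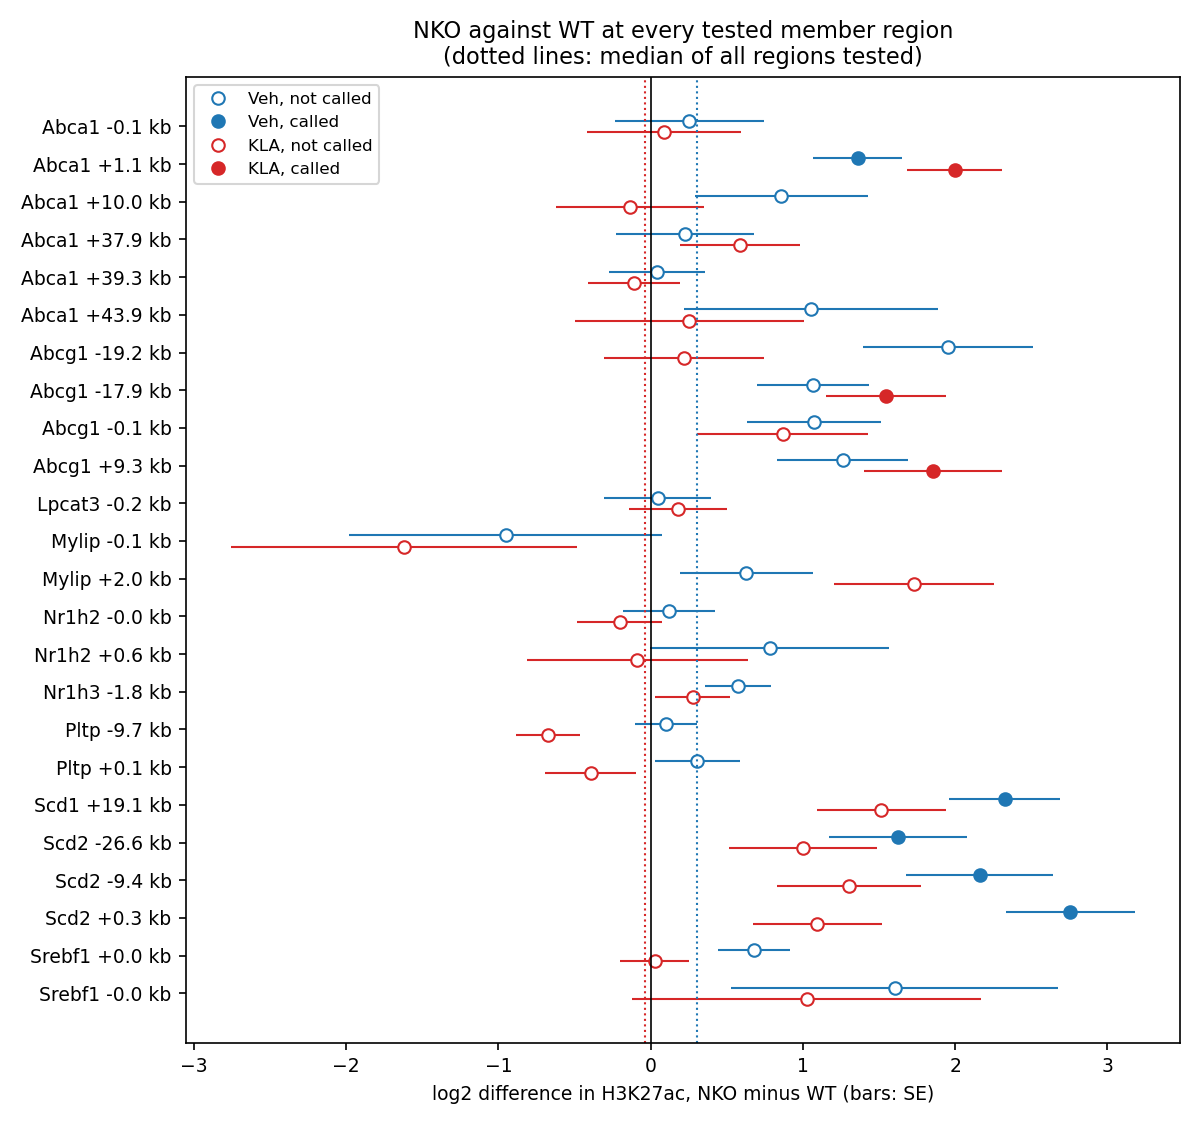
The log2 difference in H3K27ac of NKO minus WT (horizontal axis) with its SE for the 24 tested regions of the 10 loci, with Veh in blue and KLA in red, filled where called, and dotted lines at the medians of all regions (0.30 with Veh and -0.04 with KLA). Filled points lie at Abca1, Abcg1, Scd1 and Scd2 only, and with TMM the filled Veh points are those of Scd1 +19.1 kb and Scd2 +0.3 kb.

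The counts depended on single libraries. With Veh, 0 of the 24 regions were called without WT Veh replicate 2 and 2 without WT Veh replicate 1 or NKO Veh replicate 1, and with KLA 1 was called whichever library was left out. With TMM the counts were 2 with Veh and 4 with KLA. Macrophage markers summed to 721 to 771 tags per 10 M in WT Veh, 855 to 947 in NKO Veh, 922 to 1064 in WT KLA and 805 to 912 in NKO KLA. Osteoclast markers (3 of 4 genes had a region) summed to 113 to 146 in WT Veh, 199 to 212 in NKO Veh, 115 to 129 in WT KLA and 119 to 144 in NKO KLA. They were thus higher in NKO with Veh, where the Scd and Abca1 regions were also higher, and their part in the result was not tested. Neutrophil markers (2 of 4 genes had a region) stayed between 0 and 5.90.

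To place the loci in their pathway, 3 further gene lists were counted in the same comparison. These were other LXR targets (11 tested regions at 5 of 12 genes), fatty acid genes, and receptor partners and cofactors. With Veh, 1.00% of all regions were called, with a median of 0.30, so few calls could arise in lists of this size. Of 17 regions of other fatty acid synthesis, elongation and desaturation genes (7 of 17 genes) none was called (median 0.43). Of 33 regions of receptor partners and cofactors (10 of 12 genes) none was called (median 0.34). With KLA, 0.789% of all regions were called, with a median of -0.04. There 1 region was called over the 3 lists, higher, at the NCoR complex gene Tbl1xr1, and the medians were 0.08, 0.00 and 0.11.

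KLA itself was then compared with Veh in each genotype. In WT cells, 1 of 24 was higher and 2 lower (10.2% of all regions were called, medians 0.05 for these loci and 0.13 for all), and in NKO cells 1 was higher and 4 lower (10.7%, medians -0.33 and -0.20). In WT cells Abca1 +10.0 kb went from 4.41 and 6.62 to 17.0 and 20.7 tags per 10 M (1.74, SE 0.54, edgeR adjusted p = 0.022). The Abcg1 promoter went from 21.4 and 13.8 to 2.52 and 8.96 (-1.62) and Mylip +2.0 kb from 20.2 and 14.8 to 2.52 and 8.27 (-1.70). In NKO cells the mark fell at the Abcg1 promoter, from 44.2 and 29.6 to 12.7 and 7.64 (-1.82, SE 0.47, edgeR adjusted p = 0.0049), and at Scd1 +19.1 kb, from 78.2 and 56.9 to 24.4 and 20.8 (-1.56, SE 0.35, edgeR adjusted p = 0.0011). It also fell at Scd2 +0.3 kb (-1.07) and at Nr1h3 -1.8 kb (-1.16, from 128 and 98.7 to 57.3 and 42.4), calls that TMM ended at -0.88 and -0.96, and it rose at Abca1 +37.9 kb (1.34). None of the WT calls remained without WT Veh replicate 1 or replicate 2, and the NKO calls went from 5 to 3 without NKO KLA replicate 1 or NKO Veh replicate 1 and to 1 without NKO KLA replicate 2.

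These comparisons share libraries with those of the genotypes, so an interaction term was used to test whether KLA acted differently in the genotypes. It was called at none of the 24 regions and at 0.697% of all, and 3 of the 24 had an unadjusted p under 0.05. The DESeq2 Wald test called none either. The most negative values were -1.73 at Abcg1 -19.2 kb (edgeR adjusted p = 0.29) and -1.66 at Scd2 +0.3 kb (edgeR adjusted p = 0.19), against a median of all regions of -0.34. The higher NKO level with Veh at the desaturase regions was therefore not shown to differ from that with KLA.

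NCoR binding in wild type cells was then read at the same places. All 7 regions called in NKO overlapped an NCoR region and 6 an HDAC3 region, the exception being Scd2 -26.6 kb. Of the 18 other regions of these loci 14 overlapped NCoR and 14 HDAC3, and of all 24867 H3K27ac regions, 65.7% overlapped NCoR and 63.7% HDAC3. The median NCoR level with Veh was 188 tags per 10 M (20.7 to 532) at the called regions and 340 (55.2 to 505) at the uncalled regions that had NCoR, with overlapping ranges and no test. Abcg1 -17.9 kb held 490 and 573 NCoR tags per 10 M with Veh and 434 and 373 with KLA, Scd2 -9.4 kb 283 and 277 against 265 and 230, Abca1 +1.1 kb 167 and 208 against 107 and 109, and Scd1 +19.1 kb 155 and 234 against 149 and 117. None of these 4 NCoR regions was called with KLA, whereas NCoR at Scd2 -26.5 kb, within the region called in NKO, was called lower (37.0 and 47.1 with Veh, 16.2 and 16.6 with KLA, -1.35).

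To ask how TLR4 signaling moved the corepressor at these loci, NCoR and HDAC3 were compared between KLA and Veh. NCoR was called at 36 of 88 regions (14 higher and 22 lower), where 40.1% of all regions were called (23.4% higher and 16.7% lower), with a median of -0.36 against 0.10 over all regions. HDAC3 was called at 28 of 75 (20 higher and 8 lower), where 38.8% were called (27.5% higher and 11.3% lower), with a median of 0.15 against 0.27. The shares called, 40.9 and 37.3%, were close to those of all regions. With TMM the splits were 15 and 22 for NCoR and 19 and 14 for HDAC3 (11800 and 7913 against 13360 and 5463 over all regions). Without NCoR KLA replicate 2 the NCoR count was 18, and without HDAC3 Veh replicate 1 or 2 the HDAC3 count was 6 or 7.

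Pltp, the phospholipid transfer protein gene, was the locus where NCoR fell most often, at 6 of 8 regions with none higher. At Pltp -9.6 kb NCoR went from 167 and 226 to 42.9 and 29.1 tags per 10 M (-2.46, SE 0.28, edgeR adjusted p = 0.00015), and at the strong region -4.9 kb from 433 and 543 to 251 and 210 (-1.08). HDAC3 at -9.7 kb went from 153 and 180 to 51.6 and 75.5 (-1.43, SE 0.37, edgeR adjusted p = 0.00061). Veh and KLA libraries did not overlap in any of these 3.

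At the exporters both directions occurred, with 4 higher and 3 lower of 24 NCoR regions at Abca1 and 2 higher and 5 lower of 17 at Abcg1. At Abca1 -27.5 kb NCoR went from 250 and 238 to 88.3 and 74.7 (-1.58, SE 0.20, edgeR adjusted p = 0.00028). At Abca1 +11.7 kb, which was named after its values were seen, it held 0 tags in both Veh libraries and 53.5 and 36.7 per 10 M with KLA, and HDAC3 there went from 0.727 and 4.98 to 55.1 and 59.7 (4.18, SE 0.62, edgeR adjusted p = 3.1e-10). Abcg1 -36.7 kb lost NCoR, from 92.0 and 108 to 21.1 and 17.3 (-2.38, SE 0.33, edgeR adjusted p = 0.00036), and Abcg1 +20.0 kb gained HDAC3, from 12.4 and 11.1 to 21.7 and 66.7 (1.81, SE 0.56). This HDAC3 gain was lost without either Veh library and fell to 0.89 without KLA replicate 2, the library behind the higher of the 2 KLA values.

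Among the lipogenic genes NCoR was called at 1 of 5 Scd1 regions, 3 of 9 Scd2 regions and 1 of 4 Srebf1 regions. Scd1 +28.5 kb rose for NCoR from 9.56 and 8.24 to 34.0 and 44.3 (2.13, SE 0.49, edgeR adjusted p = 0.0053) and for HDAC3 from 13.1 and 7.74 to 62.7 and 82.5 (2.80, SE 0.49, edgeR adjusted p = 1.2e-07). Scd2 -12.8 kb lost NCoR, from 82.4 and 75.3 to 30.0 and 27.7 (-1.45), and Scd2 -27.9 kb gained HDAC3, from 18.9 and 26.5 to 63.9 and 56.2 (1.40). The NCoR calls at Scd1 +28.5 and Scd2 -12.8 kb were lost without either KLA library, at 1.92 to 2.30 and at -1.51 to -1.39, and the HDAC3 call at Scd2 -27.9 kb without either Veh library (1.18 and 1.67). At Srebf1 +0.8 kb NCoR went from 13.1 and 11.8 to 31.6 and 56.7 (1.82, SE 0.48, edgeR adjusted p = 0.011; 1.33 and not called without KLA replicate 2). HDAC3 at Srebf1 -40.8 kb held 0.727 and 0 with Veh and 30.5 and 43.9 with KLA.

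Of the receptor genes, Nr1h3 lost NCoR at the promoter region -0.0 kb, from 76.5 and 56.5 to 29.2 and 11.1 (-1.74, SE 0.46, edgeR adjusted p = 0.011; -1.19 and not called without KLA replicate 2), and gained HDAC3 at +0.2 kb, from 16 and 21 to 32.2 and 70.2 (1.39, lost without KLA replicate 2 at 0.78 or either Veh library at 1.24 and 1.63). The Nr1h2 promoter held NCoR at 102 and 135 with Veh and 161 and 125 with KLA (0.27, not called). Upstream of Mylip at -1.4 kb both rose, NCoR from 7.17 and 7.06 to 66.4 and 60.2 (3.13, SE 0.44, edgeR adjusted p = 0.00042) and HDAC3 from 5.82 and 11.6 to 56.9 and 107 (3.15, SE 0.49, edgeR adjusted p = 2e-09). Upstream of Lpcat3 the strong NCoR region at -0.4 kb fell, from 274 and 423 to 172 and 151 (-1.11; not called without Veh replicate 2, at -0.77, or KLA replicate 2, at -1.02), whereas HDAC3 at -1.7 kb rose, from 20.4 and 18.8 to 62.7 and 59.7 (1.65, lost without either Veh library at 1.70 and 1.58).

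**Figure D3:**
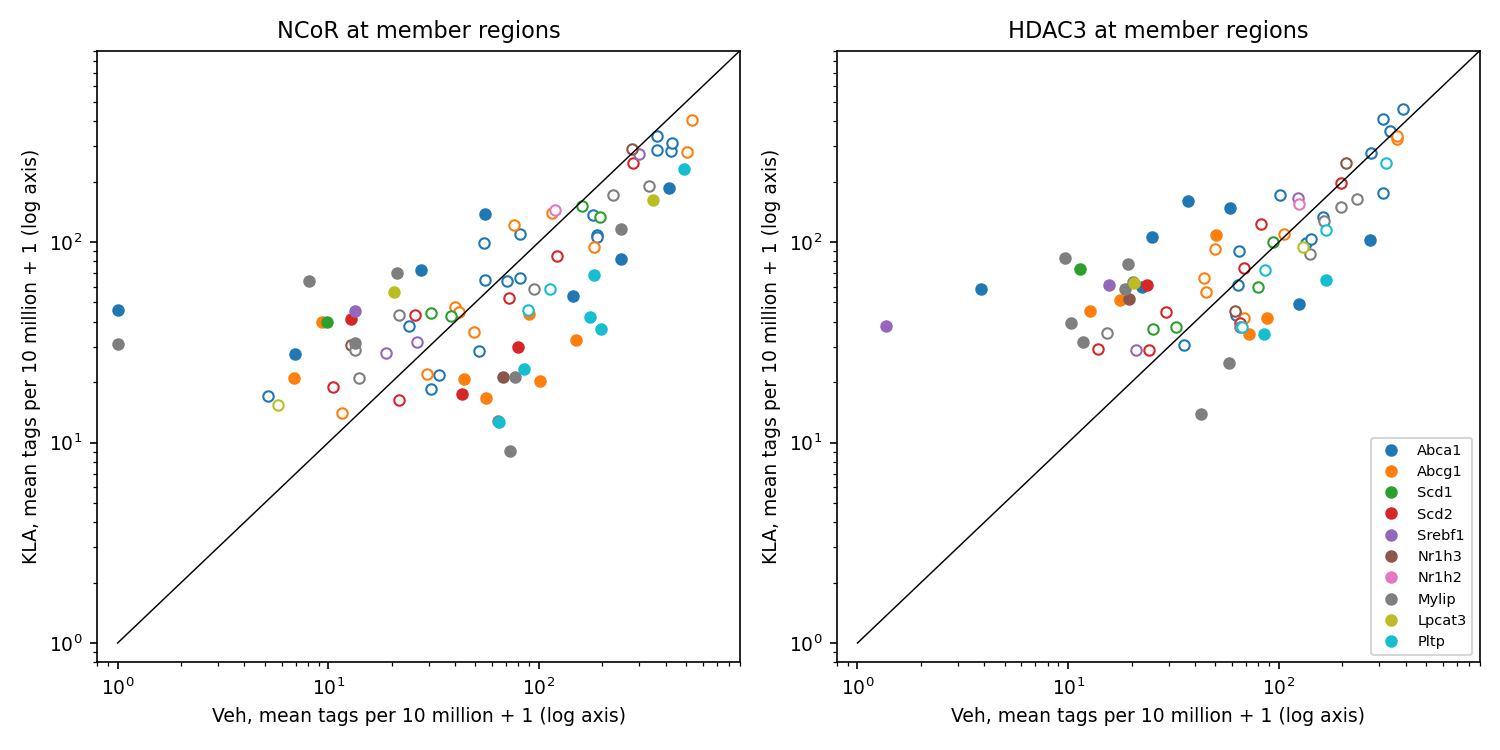
Mean NCoR (88 regions) and HDAC3 (75 regions) tags per 10 M plus 1 in Veh (horizontal) and KLA (vertical), both axes logarithmic, coloured by gene and filled where called. Most filled NCoR points (22 of 36) lie below the diagonal and most filled HDAC3 points (20 of 28) above it, and with TMM the HDAC3 split was 19 and 14.

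p65, the NF-κB subunit activated by TLR4, was called at 39 of 63 regions (37 higher and 2 lower), where 62.4% of all regions were called, with medians of 1.34 for these loci and 1.46 for all. With TMM the split was 17 and 11 (14540 and 11205 against 29981 and 2859 over all regions), and without KLA replicate 1 or 2 the count was 22 or 23. At Mylip -1.4 kb p65 went from 4.38 and 6.53 to 124 and 190 (4.83, SE 0.42, edgeR adjusted p = 4.7e-06). At Nr1h3 -1.9 kb it went from 63.0 and 58.7 to 392 and 415 (2.73, SE 0.21, edgeR adjusted p = 2.2e-06). Abcg1 +9.6 kb, which overlaps the intron 2 region called in NKO, rose from 18.4 and 21.4 to 129 and 163 (2.87, SE 0.31, edgeR adjusted p = 2e-05). Lpcat3 -1.7 kb rose from 2.63 and 14.0 to 106 and 125 (3.80, SE 0.49). The Abca1 promoter (-0.2 kb) went from 109 and 130 to 391 and 445 (1.81), Pltp -5.0 kb from 135 and 165 to 344 and 413 (1.34) and Scd1 +28.5 kb from 21.9 and 30.8 to 76.8 and 94.4 (1.70), and these 3 calls were lost with TMM (0.59, 0.11 and 0.48). The 2 regions that fell were promoters, named after their values were seen, Abcg1 +0.0 kb (63.0 and 37.3 to 10.7 and 13.7, -2.04) and Pltp +0.1 kb (61.3 and 79.2 to 29.4 and 26, -1.34).

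The acetyltransferase p300 was called at 38 of 84 regions (29 higher and 9 lower), where 54.9% of all regions were called, with medians of 0.68 and 0.65. With TMM the split was 22 and 18 (22267 and 16245 against 28597 and 8747 over all regions). Of the 30 Abca1 regions 14 were called higher, where 28597 of all 67998 regions were. At Abca1 +9.2 kb p300 went from 12.5 and 10.5 to 123 and 118 tags per 10 M (3.38, SE 0.27, edgeR adjusted p = 3.8e-08), at Mylip -1.5 kb from 1.25 and 1.97 to 77.2 and 61.1 (5.37, SE 0.48, edgeR adjusted p = 1.2e-07), at Lpcat3 -1.7 kb from 13.2 and 15.1 to 76.2 and 85.4 (2.51, SE 0.30, edgeR adjusted p = 2.7e-06) and at Scd2 -9.6 kb from 40.7 and 21.7 to 143 and 122 (2.07, SE 0.26, edgeR adjusted p = 4.9e-06). Pltp again went down, at 4 of 10 regions with none higher, and its promoter region went from 43.9 and 61.8 to 12.3 and 9.73 (-2.25, SE 0.37, edgeR adjusted p = 7.8e-05). Nr1h3, Nr1h2 and Srebf1 had no p300 call.

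PGC1b, the coactivator, was called at 11 of 66 regions (10 higher and 1 lower), where 22.8% of all regions were called, with medians of 0.17 and 0.06. The counts were 18 without KLA replicate 2, 3 without Veh replicate 1 and 6 without Veh replicate 2, and with TMM the split was 10 and 3. Abca1 +40.9 kb went from 12.9 and 11.2 to 51.3 and 59.5 (2.21, SE 0.39, edgeR adjusted p = 0.00051) and Mylip -1.4 kb from 1.76 and 2.79 to 25.1 and 22.3 (3.31, SE 0.63, edgeR adjusted p = 0.00098). At Nr1h3 -1.9 kb it went from 37.6 and 38.6 to 99.4 and 74.4 (1.18, SE 0.31, edgeR adjusted p = 0.0095), a call lost without either Veh library or KLA replicate 1 (0.96 to 1.20). In a separate experiment with DMSO, PGC1b was called at 8 of 67 regions (7 higher and 1 lower; 3 and 2 with TMM), where 17.6% of all regions were called, with medians of 0.37 and 0.45. There Abca1 +9.2 kb went from 8.12 and 13.1 to 107 and 81.9 (3.18, SE 0.57, edgeR adjusted p = 0.00029) and Nr1h3 -1.9 kb from 54.4 and 51.0 to 150 and 104 (1.26, SE 0.38, edgeR adjusted p = 0.021; 0.78 and not called with TMM, and lost without either Veh library or KLA replicate 1, at 0.98 to 1.31).

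The kinase ERK1 was called at 4 of 34 regions (3 higher and 1 lower), where 12.9% of all regions were called, with medians of 0.39 and 0.26. All 4 lay at the exporters. Abca1 +9.2 kb went from 4.72 and 1.16 to 73.8 and 42.2 (4.34, SE 0.77, edgeR adjusted p = 0.0093) and Abcg1 +16.5 kb from 4.72 and 2.31 to 40.6 and 19.1 (3.08, SE 0.84, edgeR adjusted p = 0.035). The first call was lost without KLA replicate 1 (3.86) and the second without either KLA library or Veh replicate 2 (2.41 to 3.51), and the count was 1 or 2 without KLA replicate 1 or 2 and 8 without Veh replicate 1.

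The AP-1 factor Fosl2 was called at 2 of 42 regions, both at Abca1 (1 higher and 1 lower), where 15.6% of all regions were called, with medians of -0.25 and -0.14. TMM called 8 (6 higher and 2 lower) and the DESeq2 Wald test 12. Without KLA replicate 1 or 2 there were 12 or 16, and without either Veh library none. Abca1 -4.5 kb, named after its values were seen, went from 4.23 and 11.5 to 62.8 and 67.8 (2.99, SE 0.99, edgeR adjusted p = 0.021). The lineage factor PU.1 was called at 10 of 54 regions (2 higher and 8 lower; 3 and 4 with TMM, and 16 calls without KLA replicate 2), where 26.3% of all regions were called (4629 higher and 5365 lower with TMM against 2296 and 11020), with medians of -0.28 and -0.41. PU.1 fell at Pltp -7.0 kb, from 46.0 and 43.6 to 8.51 and 5.10 (-2.71, SE 0.29, edgeR adjusted p = 6.8e-16), and rose at Scd1 +28.5 kb, from 26.4 and 27.4 to 94.2 and 98.1 (1.84, SE 0.19, edgeR adjusted p = 2.2e-16).

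**Figure D4:**
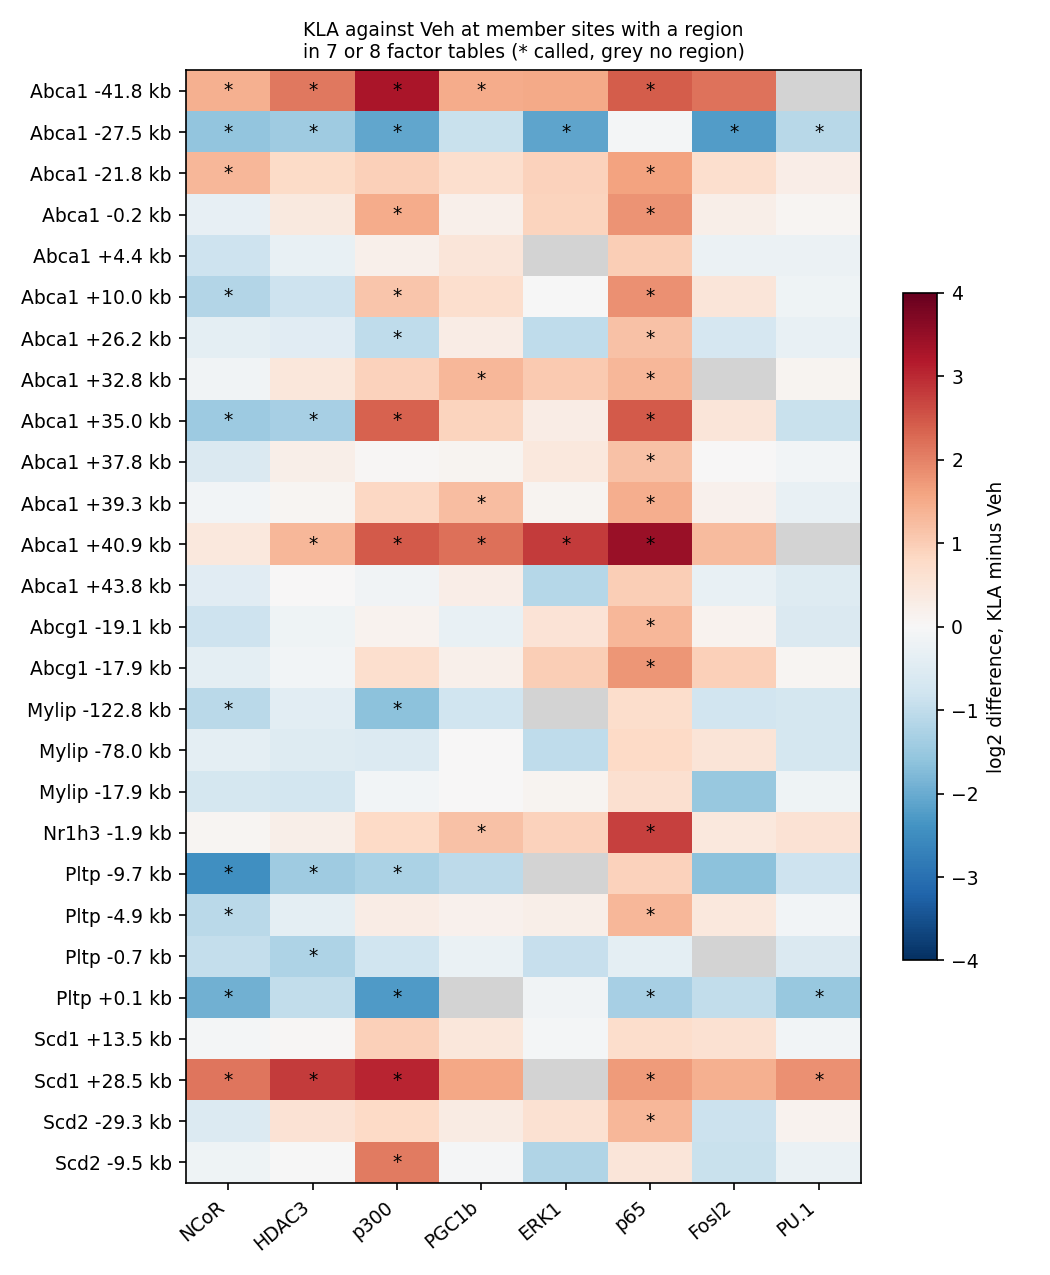
Log2 difference of KLA minus Veh for each of the 8 factors (columns) at the 27 sites of these loci that had a region in 7 or 8 factor tables (lines), with stars at calls and grey where a table had no region. Among all 139 sites Abca1 -27.5 kb was called lower for 6 factors, of which the PU.1 call was lost with TMM, and no other site was called lower for more than 4.

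One intergenic site upstream of Abca1 recurred in most comparisons and was picked out after its values were seen. Its window of 200 bases is printed because the motif in capitals, GGGANTTTC, the NF-κB letters present in 1.02% of the H3K27ac windows, stands at bases 99 to 107.

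Abca1 -27.5 kb, chr4:53187294-53187493, intergenic: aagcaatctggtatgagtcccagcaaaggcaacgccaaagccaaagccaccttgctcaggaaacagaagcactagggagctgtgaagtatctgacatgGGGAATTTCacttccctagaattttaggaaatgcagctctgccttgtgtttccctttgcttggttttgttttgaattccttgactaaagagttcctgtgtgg

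With KLA, 6 of the 8 factors fell there. NCoR is given above. HDAC3 went from 287 and 252 to 93.2 and 111 tags per 10 M (-1.41, SE 0.37, edgeR adjusted p = 0.00074), and p300 from 196 and 180 to 52.2 and 36.8 (-2.08, SE 0.20, edgeR adjusted p = 3e-07). Every KLA library was below every Veh library for each of these. ERK1 went from 86.5 and 97.1 to 20.9 and 21.8 (-2.10, SE 0.42, edgeR adjusted p = 0.013), PU.1 from 335 and 372 to 162 and 164 (-1.11, SE 0.09, edgeR adjusted p = 2.1e-22) and Fosl2 from 309 and 233 to 9.31 and 101 (-2.24, SE 0.73, edgeR adjusted p = 0.019). The 2 Fosl2 libraries with KLA thus lay far apart. The PU.1 call was lost with TMM (-0.69), the ERK1 call without KLA replicate 1 (-2.07), the HDAC3 call without Veh replicate 1 or 2 (-1.31 and -1.50) and the Fosl2 call without Veh replicate 1 or 2 (-2.04 and -2.45).

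PGC1b at this site went from 98.7 and 73.0 to 49.1 and 44.0, which was not called (-0.88), and in the DMSO experiment from 101 and 128 to 49.3 and 41.7, which was (-1.33, edgeR adjusted p = 0.026; not called without any one of the 4 libraries, at -1.50 to -1.15). p65 held 81.4 and 83.0 with Veh and 66.8 and 89.6 with KLA (-0.07, not called), and with TMM it was called lower (-1.30). No other of the 139 sites was called lower for more than 4 of the 8 factors, and this site also had no region in the WT and NKO table of H3K27ac, so the effect of NCoR loss there was not measured.

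The opposite pattern, 5 of the 8 factors called higher with KLA, was found at 5 sites named after their values were seen: Abca1 +9.2, +40.9 and -41.8 kb, Mylip -1.4 kb and Scd1 +28.5 kb. HDAC3, p65 and p300 were among the 5 at each of them. NCoR was among them at Abca1 -41.8 kb, Mylip -1.4 kb and Scd1 +28.5 kb, PGC1b at the 3 Abca1 sites and at Mylip, ERK1 at Abca1 +9.2 and +40.9 kb, and PU.1 at Scd1 +28.5 kb. Of these calls the p65 call at Scd1 +28.5 kb was lost with TMM.

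HDAC3 was inhibited with RGFP966 to ask whether its enzyme activity bears on the mark, and here H3K27ac was counted in windows of 1000 bp, so levels are not comparable with the WT and NKO table. In the DMSO controls KLA changed 3 of 20 windows (2 higher and 1 lower; 3 and 1 with TMM), where 34.8% of all windows were called (3124 higher and 4316 lower with TMM against 1686 and 7038), with medians of 0.16 and -0.42. Adding RGFP966 to KLA changed 2 of 20 (1 higher and 1 lower; 0 and 1 with TMM), where 36.5% were called (4031 higher and 4742 lower with TMM against 6749 and 2388), with medians of -0.17 and 0.39. The 2 comparisons share the DMSO KLA libraries. The RGFP966 count was 1 without DMSO KLA replicate 2 or either RGFP966 library.

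Abca1 -27.5 kb stood out again. It held 515 and 522 tags per 10 M with DMSO and Veh, 152 and 137 with DMSO and KLA (-1.84, SE 0.20, edgeR adjusted p = 3.1e-18) and 302 and 286 with RGFP966 and KLA, a difference of 1.02 from DMSO with KLA (SE 0.20, edgeR adjusted p = 2.8e-06). The RGFP966 level lay between the other groups, and its call was lost with TMM (0.68) and without DMSO KLA replicate 2 (0.96) or RGFP966 replicate 1 (0.98). The Nr1h2 window at +0.5 kb fell with RGFP966, from 133 and 138 to 81.6 and 48.1 (-1.06, SE 0.23, edgeR adjusted p = 2.6e-05; -0.73 and not called without RGFP966 replicate 2). KLA raised Srebf1 -0.1 kb, from 21.6 and 13.1 to 68.6 and 54.7 (1.83, SE 0.32, edgeR adjusted p = 5.5e-08), and Abca1 +10.1 kb, from 59.0 and 67.2 to 131 and 124 (1.01, SE 0.24). This Srebf1 window (chr11:60210027-60211027) lies at another start than the +0.0 kb promoter region above. In PGC1b flox/flox cells without LysMCre the same Srebf1 window differed by 0.19 with KLA (edgeR adjusted p = 0.48), whereas the Abca1 window rose by 1.57.

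Of the regions called in NKO, 4 lay in a window of this table, and none of these windows was called with RGFP966. Abca1 +1.1 kb held 180 and 130 with DMSO and KLA and 116 and 90.8 with RGFP966 and KLA (-0.59, edgeR adjusted p = 0.013). Scd2 -26.6 kb held 94.5 and 63.1 against 135 and 132 (0.75, edgeR adjusted p = 0.0028), Scd1 +19.1 kb differed by 0.20 and Scd2 -9.4 kb by 0.37. RGFP966 was given together with KLA only, and NKO was measured in another table, so the effects were not compared by a test.

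Loss of the coactivator was examined in PGC1b flox/flox cells without LysMCre (flox) and with it (flox Cre), in the same 1000-bp windows. With Veh none of 20 windows was called (0.397% of all windows were, medians -0.18 and -0.20), 7 had an unadjusted p under 0.05 and the DESeq2 Wald test also called none. With KLA 2 of 20 were called, both lower in flox Cre (0 and 1 with TMM), where 7.52% of all windows were called (478 higher and 273 lower with TMM against 177 and 1717), with medians of -0.60 and -0.38. The interaction of genotype and KLA was called at 3 of 20, all lower (0 and 2 with TMM), where 5.37% were called (353 higher and 583 lower with TMM against 194 and 1158), with medians of -0.45 and -0.18. The KLA count was 1 without flox KLA replicate 1.

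The LXRα gene gave the clearest difference. Nr1h3 -1.9 kb held 301 and 329 tags per 10 M in flox with Veh, 280 and 286 in flox with KLA, 255 and 238 in flox Cre with Veh and 89.6 and 98.3 in flox Cre with KLA. Among these groups the mark was thus low only where both PGC1b was deleted and KLA was given, and the groups did not overlap. KLA did not act alike at this site in the other control cells. In WT cells of the NKO experiment it fell from 80.7 and 70.8 to 39.0 and 44.1 (-0.86, edgeR adjusted p = 0.0083; -1.01 and called with TMM). In the DMSO controls the KLA difference was 0.33, which was not called. Flox Cre differed from flox by -1.59 with KLA (SE 0.12, edgeR adjusted p = 2.6e-34; -1.19 and called with TMM), and the interaction was -1.24 (SE 0.16, edgeR adjusted p = 3.2e-12; -1.05 and called with TMM).

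Pltp -4.9 kb was also lowest in flox Cre with KLA. It held 431 and 375 in flox Veh, 317 and 290 in flox KLA, 411 and 401 in flox Cre Veh and 145 and 150 in flox Cre KLA. Unlike at Nr1h3, flox KLA lay below both Veh groups here. Flox Cre differed from flox with KLA by -1.04 at Pltp (edgeR adjusted p = 2.8e-21), and the interaction was -1.05 (SE 0.14, edgeR adjusted p = 1.7e-12). Both calls were lost with TMM (-0.65 and -0.86) and without flox KLA replicate 1 (-0.98 for each), and the interaction also without flox Veh replicate 2 (-0.95). At Abca1 +37.8 kb, 40.4 and 33.9 in flox Veh rose to 114 and 133 with KLA (1.72, SE 0.21, edgeR adjusted p = 1.3e-15), while flox Cre held 72.3 and 56.4 with Veh and 61.4 and 72.3 with KLA (0.05). With TMM this flox Cre difference was 0.67, which was not called. Flox Cre was above flox with Veh (0.79, edgeR adjusted p = 0.0067) and below it with KLA (-0.88, edgeR adjusted p = 3.1e-05). Neither of these differences passed the 2-fold threshold. The interaction there was -1.66 (SE 0.29, edgeR adjusted p = 5.2e-07; -1.48 and called with TMM).

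Macrophage markers in this table summed to 5549 to 5671 tags per 10 M in flox Veh, 5719 to 5984 in flox KLA, 4988 to 5133 in flox Cre Veh and 3343 to 3438 in flox Cre KLA. Osteoclast markers summed to 916 to 925 in flox KLA and 572 to 618 in flox Cre KLA. Both sums were lowest in flox Cre with KLA, the group in which Nr1h3 and Pltp were low, and their part in the result was not tested.

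Within each genotype, KLA changed 6 of 20 windows in flox cells (3 higher and 3 lower; 5 and 0 with TMM), where 30.8% of all windows were called (2480 higher and 3470 lower with TMM against 1315 and 6450), with medians of -0.25 and -0.45. It changed 7 of 20 in flox Cre cells (1 higher and 6 lower; 4 and 0 with TMM), where 36.7% were called (2712 higher and 3598 lower with TMM against 1054 and 8189), with medians of -0.80 and -0.62. Abca1 -27.5 kb fell in both genotypes, from 330 and 362 to 139 and 132 in flox (-1.35, SE 0.11) and from 335 and 347 to 127 and 138 in flox Cre (-1.36, SE 0.11), calls that TMM ended at -0.92 and -0.74. The interaction there was -0.01 with an SE of 0.16. Nr1h3 -1.9 kb fell by 1.39 and Pltp -4.9 kb by 1.46 in flox Cre on the log2 scale, against changes of -0.15 and -0.41 in flox, and both of these flox Cre calls were also lost with TMM (-0.77 and -0.84).

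**Figure D5:**
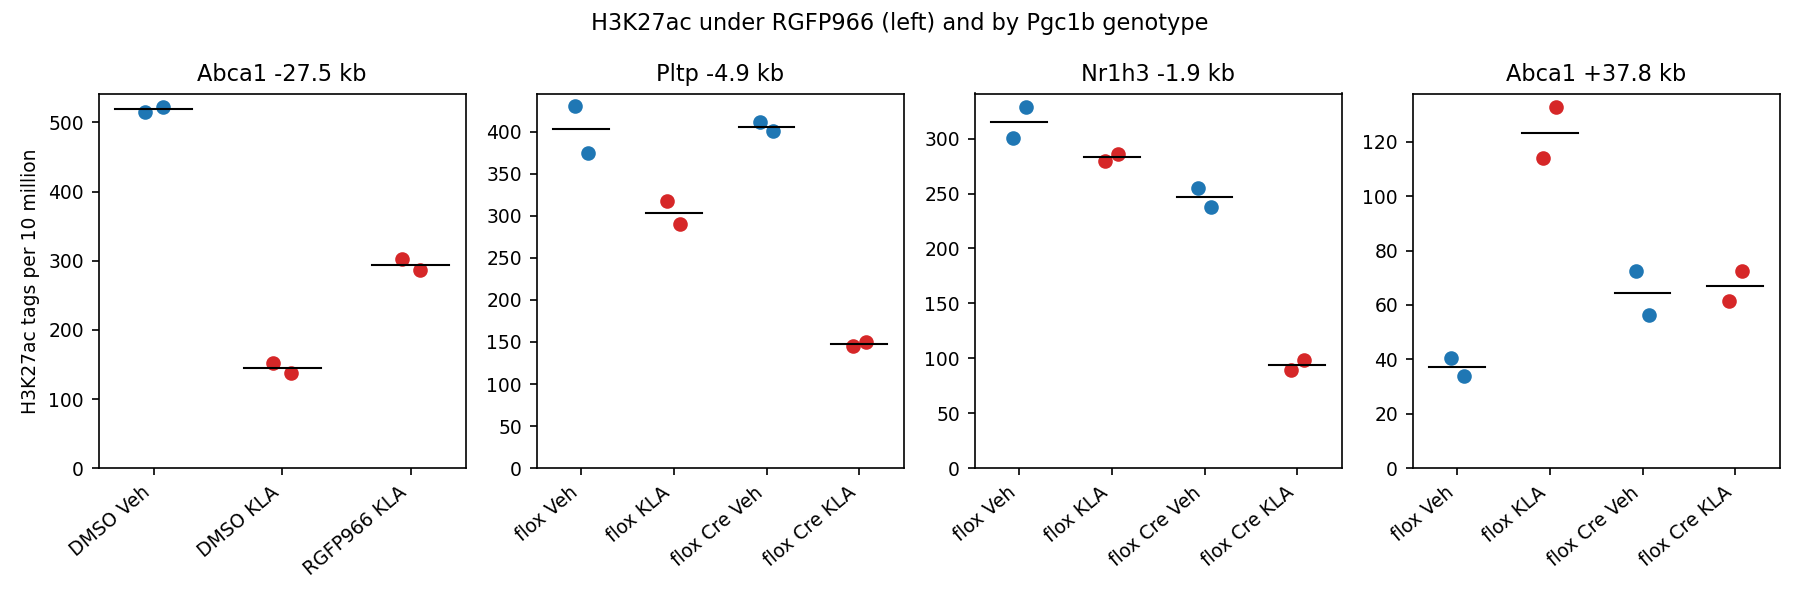
H3K27ac in tags per 10 M (vertical axes) in 1000-bp windows, with 1 point per library and bars at the means of 2 libraries, for Abca1 -27.5 kb in the RGFP966 table and for Nr1h3 -1.9 kb, Pltp -4.9 kb and Abca1 +37.8 kb in the Pgc1b table. Nr1h3 and Pltp are lowest in flox Cre with KLA (89.6 to 150), and Abca1 +37.8 kb is high only in flox with KLA (114 and 133).

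ERK signaling was blocked to ask whether KLA-driven binding depends on it. NCoR with KLA and ERKi was lower than with KLA alone at 48 of 90 regions and higher at none, but 49.2% of all regions were called too, and the medians were -1.23 and -1.20. With TMM 3 were higher and 7 lower (1985 and 1946 against 365 and 27959 over all regions), and the DESeq2 Wald test gave 4 and 7. The ERKi libraries carry another library date than the KLA libraries, and the date and the inhibitor cannot be told apart. The count was 24 or 31 without KLA replicate 1 or 2. The KLA time of the ERKi libraries is not given in the labels.

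Of the regions with the lowest p at each locus, those that stayed called lower with TMM were Abcg1 +18.0 kb, from 123 and 118 to 16.1 and 13.8 (-3.01, SE 0.32, edgeR adjusted p = 6.5e-05; -1.84 with TMM), Mylip -122.8 kb, from 120 and 113 to 22 and 16.4 (-2.60, SE 0.26, edgeR adjusted p = 5.3e-05; -1.43 with TMM), and Abca1 +26.2 kb, from 136 and 136 to 26.2 and 12.1 (-2.82, SE 0.34, edgeR adjusted p = 0.00011; -1.66 with TMM). These lie well below the median of all regions under both scalings. Scd2 -9.4 kb, from 266 and 230 to 112 and 96.5 (-1.24), sat near that median and differed by -0.08 with TMM. Nr1h3 -1.8 kb went from 303 and 285 to 117 and 97.4 (-1.46, and -0.29 with TMM). This was somewhat below the medians of -1.20 and, with TMM, -0.04. Srebf1 -0.1 kb, at another start than the +0.0 kb promoter region, went from 293 and 255 to 98.9 and 66.4 (-1.73, and -0.56 and not called with TMM).

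PGC1b with ERKi and KLA was called at none of 67 regions against DMSO with KLA, where 0.286% of all regions were called, with medians of -0.24 and -0.20. Of the 67, 11 had an unadjusted p under 0.05, and the DESeq2 Wald test called none. At Abca1, 6 regions were called higher for PGC1b with KLA in DMSO, and the same DMSO KLA libraries are the reference for ERKi. Negative values with ERKi could thus follow from the choice of regions alone. Of the 6, 5 had negative values with ERKi and 1 a positive one (-1.90 to 0.27). The 2 with the lowest p were +40.9 kb at 32.9 and 25.9 against 113 and 92.3 (-1.80, edgeR adjusted p = 0.10) and +9.2 kb at 28.2 and 37.5 against 107 and 81.9 (-1.51, edgeR adjusted p = 0.17), and neither passed the threshold, although the libraries did not overlap.

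In osteoclast culture, p300 at day 4 was higher than at day 0 at 24 of 32 regions and lower at none, where 62.5% of all regions were called, with medians of 2.07 and 1.84. With TMM 1 of the 32 was called (1773 higher and 771 lower against 12531 and 50 over all regions), and the DESeq2 Wald test also called 1. The count was 7 without day 4 replicate 1 and 5 without day 4 replicate 2. The region called under both scalings was Abcg1 +9.6 kb, from 2.64 and 2.13 to 73.3 and 81.7 (4.89, SE 0.64, edgeR adjusted p = 0.00019; 3.30 with TMM), which overlaps the intron 2 region that carried more H3K27ac in NKO with KLA. Scd2 -9.5 kb went from 4.40 and 2.13 to 47.9 and 49.9 (3.70, and 2.09 and not called with TMM) and Nr1h3 -1.9 kb from 39.6 and 40.5 to 142 and 161 (1.92, and 0.30 with TMM). ERK1 at day 4 was called at none of 35 regions, where 2.35% of all were called, with medians of 1.00 for both. Of the 35, 8 had an unadjusted p under 0.05, the DESeq2 Wald test called none, and 1 or 3 were called without day 0 replicate 1 or 2. For ERK1 at day 4, the labels of replicate 2 disagree, since its description calls it replicate 3 and gives a later date.

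The same further lists were counted for the corepressor and the inhibitors. With KLA, NCoR was called higher at 23.4% and lower at 16.7% of all regions, with a median of 0.10. It was higher at 13 and lower at 26 of 77 regions of other LXR targets (median -0.42). For fatty acid genes, 12 were higher and 5 lower of 48 regions (median 0.25). For receptor partners and cofactors, 20 were higher and 32 lower of 121 regions (median -0.48). With RGFP966, where 36.5% of all windows were called with a median of 0.39, H3K27ac was higher at 3 and lower at none of 13 windows of other LXR targets (median 0.19; 2 and 0 with TMM). It was higher at 6 and lower at 5 of 22 windows of fatty acid genes (median 0.29; 4 and 7 with TMM) and higher at 12 and lower at 2 of 37 of partners and cofactors (median 0.53; 7 and 4 with TMM). In flox Cre with KLA, where 7.52% of all windows were called with a median of -0.38, none of 13 windows of other LXR targets was called (median -0.46). There 1 was higher and 1 lower of 24 windows of fatty acid genes (median -0.52; 1 and 0 with TMM), and 1 higher and 6 lower of 36 of partners and cofactors (median -0.63; 1 and 1 with TMM).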

How the data were processed

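The authors mapped single-end reads to mm10 (Bowtie2) and used HOMER, versions not stated, to build tag directories and to merge the peaks that replicates shared. The authors deposited raw tag counts per region and library, with the library total in each column header. H3K27ac was counted over open chromatin regions as given, or in 1000-bp windows for the Pgc1b and RGFP966 tables. Formaldehyde alone fixed H3K27ac chromatin, and disuccinimidyl glutarate with formaldehyde fixed factor chromatin.

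Groups came from the labels. Regions with at least 4 tags (H3K27ac 16) in 1 library were tested in 25 comparisons, each table in 1 fit with edgeR 4.0.16 (quasi-likelihood, two-sided, offsets from header totals, R 4.3.3). The SE was the log2 difference divided by the square root of F. The members and lists were chosen with earlier results of these data known. The regions named were, for each table and member, the promoter (within 2 kb) and distal regions with the most tags and the called region of lowest p in each comparison, other regions being named as chosen after their values were seen. No fold was given where a group held no more than 1 tag. Same-numbered replicates did not deviate together (31 correlations of -0.0266 to 0.0255), and no stated animal links them, so they were treated as unpaired. Replicates correlated at 0.484 to 0.978 across regions, and none agreed within sampling noise (chi-square per degree of freedom at least 1.31). Alternatives were TMM, DESeq2 1.42.0, no filter, a replicate block and each library left out. The fit was tested on simulated data. The Veh comparison of NKO and WT at the list of other LXR targets is not reported here. Sequences come from the RefSeq copy of GRCm38.p6. Python 3.11.15, pandas 2.3.3, numpy 2.4.6 and matplotlib 3.10.9 were used. Intervals of counts were not computed, and tags are not independent molecules.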

Additional observations from a re-analysis of the deposited data

Results flagged for a closer look

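At 3 windows of these loci the mark responded to KLA differently in PGC1b flox/flox cells with and without LysMCre, by a test of the interaction itself. The interaction was -1.66 at Abca1 +37.8 kb, -1.24 at Nr1h3 -1.9 kb and -1.05 at Pltp -4.9 kb on the log2 scale (edgeR adjusted p = 5.2e-07, 3.2e-12 and 1.7e-12), each with 2 libraries per group. At Abca1 +37.8 kb KLA raised the mark in both flox libraries, and the flox Cre libraries with KLA lay within the range of those with Veh. With TMM the flox Cre difference with KLA there was 0.67, which was not called. With Veh, flox Cre was above flox there (0.79, not called). At Nr1h3 and Pltp the mark fell in both flox Cre libraries. The Pltp call was lost with TMM (-0.86), and the summed macrophage marker level was also lowest in flox Cre with KLA, whose part in these results was not tested. No group had the 4 libraries needed to look for a single outlying library.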

How the results depend on the processing

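No call of a named region turned into a call in the other direction. A region that was not called could change sign and be called. At Scd2 +1.2 kb p65 differed by 0.21 with library totals and by -1.02, called lower, with TMM. TMM, the DESeq2 Wald test, no filter and a replicate block were tried for each of the 25 counts of called regions, and 17, 17, 25 and 24 stayed within 1.5 times the reported count. TMM moved 8: H3K27ac in NKO against WT with Veh (2), in flox Cre with KLA against Veh (4), in flox Cre against flox with KLA (1) and with RGFP966 (1), Fosl2 (8), p300 at day 4 (1), NCoR with ERKi (10) and PGC1b with KLA in DMSO (5). The DESeq2 Wald test moved the same 8, to 2, 4, 1, 1, 12, 1, 11 and 5. The replicate block moved only the Fosl2 count (2 regions to 0). It left 127 of 132 log2 differences of named regions on their side of the threshold, TMM 92 and DESeq2 92, and the pairing is not stated.

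Leaving out 1 library gave these ranges of called regions. H3K27ac gave 0 to 4 (NKO against WT, Veh), 1 (NKO against WT, KLA), 0 to 3 (KLA in WT), 1 to 4 (KLA in NKO), 0 (interaction of NKO and KLA), 2 to 3 (KLA in DMSO), 1 to 3 (RGFP966), 4 to 7 (KLA in flox), 5 to 7 (KLA in flox Cre), 0 (flox Cre with Veh), 1 to 3 (flox Cre with KLA) and 2 to 3 (interaction of flox Cre and KLA). With KLA against Veh, NCoR gave 18 to 41, HDAC3 6 to 30, p65 22 to 43, Fosl2 0 to 16, PU.1 9 to 16, PGC1b 3 to 18 (6 in DMSO), ERK1 1 to 8 and p300 27 to 41. NCoR with ERKi gave 24 to 49, PGC1b with ERKi 0, p300 at day 4 gave 5 to 27 and ERK1 at day 4 gave 0 to 3. Where 1 library of a group was left out, the other was assumed to vary like those of the other groups.

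Limits are the 2 libraries per group, the low H3K27ac counts of the WT and NKO table (5.55 to 7.18% of tags in regions), and the scaling, which decides many directions where most regions shift together. Depth varied from 4.30 M tags (Fosl2) to 21.5 M (PGC1b). The cause of the moved counts was not tested.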
